A study of Homo sapiens with 6 samples.

Results

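The integrated stress response genes described here are 40 named genes of the ATF4 pathway, chosen by symbol, out of 35238 symbols in the count table. All 40 were found under the older symbols listed (AARS for alanyl-tRNA synthetase, and so on), and 38 passed the filter on low counts. RNA was sequenced from untreated HAP1 cells, a near-haploid human line derived from a chronic myeloid leukemia line. There were 3 libraries of wildtype cells and 3 of DEGS1 knockout cells, all harvested 24 h after passage from medium with 5% serum. DEGS1 is the desaturase that turns dihydroceramide into ceramide. The labels do not say how many knockout clones were used or whether the libraries of a genotype were separate cultures, so the spread behind each p-value is that between these libraries and may be technical.

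The integrated stress response starts when a kinase phosphorylates the translation factor eIF2 on its alpha subunit. Translation then falls in general, while that of the transcription factor ATF4 rises. More ribosomes then pass an inhibitory upstream reading frame in its mRNA and start at its coding sequence. ATF4, paired with other bZIP factors, turns on genes for amino acid synthesis, amino acid uptake, tRNA charging and redox balance, and with long stress genes such as DDIT3, which encodes CHOP. The pathway is therefore read at the RNA level mainly through these targets, and phosphorylation or ATF4 protein was not measured here.

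Many ATF4 targets are bound at a C/EBP-ATF response element, a composite of a C/EBP and an ATF site. Its core was searched as TGATGNAA on both strands of the RefSeq promoters (build GRCh38.p14), each running from 250 bases before to 50 after a start site. Of the 34 members with a promoter in that table, 11 held the core, or 32.4%, against 4.46% of the 27305 genes in the table. EIF2AK1, NUPR1, PSPH, SHMT2, ALDH1L2 and PYCR1 had no entry. The members were chosen as genes of the ATF4 pathway, so their share is a description and was not tested. The 11 sites are printed because they are the letters these 11 members share. Each is on the strand that reads TGATGNAA, with that core in capitals and up to 10 bases on either side.
CHAC1 (chr15:40953252-40953279, minus strand): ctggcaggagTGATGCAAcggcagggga
ASNS (chr7:97872459-97872486, minus strand): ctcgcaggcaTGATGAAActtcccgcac
CEBPG (chr19:33374061-33374088, plus strand): gcgcggcgtcTGATGCAAcctgccggca
ATF3 (chr1:212565206-212565233, plus strand): aaggtcaggaTGATGGAAggctgtcata
PPP1R15B (chr1:204412027-204412054, minus strand): ccgccccggcTGATGCAAcctcacgctg
FGF21 (chr19:48755460-48755487, minus strand): tcctcctcccTGATGCAAtcctggtgtt
AARS (chr16:70289676-70289703, plus strand): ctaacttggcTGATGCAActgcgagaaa
GARS (chr7:30594835-30594862, minus strand): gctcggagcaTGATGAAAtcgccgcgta
MARS (chr12:57488054-57488081, minus strand): aatccctcgcTGATGCAAccggaaccgg
NARS (chr18:57621805-57621832, minus strand): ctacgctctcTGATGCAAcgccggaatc
TARS (chr5:33440957-33440984, minus strand): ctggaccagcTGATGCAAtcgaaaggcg

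In 8 of these 11 sites the core read TGATGCAA, in ASNS and GARS TGATGAAA and in ATF3 TGATGGAA. Of the 11, 5 belonged to tRNA synthetases, and in MARS, NARS and TARS the core began 4 bases before, 15 after and 3 after the start site. The cAMP response element TGACGTCA, the site of an ATF or CREB dimer, was found in 1 member, PPP1R15A (chr19:48872353-48872380, plus strand, cctctcttcgTGACGTCAgcacgccggg), and in 2.25% of genes. The endoplasmic reticulum stress element, read in its full consensus on both strands, was found in none of the 34 and in 0.0916% of genes. A match is a description of the letters in a window, not evidence of binding, and the coordinates are of another build than the hg19 named for the counts.

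The upstream 250 bases of 3 members are printed whole, each on its gene's strand. DDIT3 is shown as the member that changed, and CHAC1 and ASNS as targets holding the core whose level in knockout library 2 was well below that in the other knockout libraries. The core is in capitals, and it reads TTGCATCA in CHAC1, where it lies on the opposite strand. The DDIT3 window held no full match to any of the 3 motifs. It did hold a stretch that differs from the endoplasmic reticulum stress element only in the last letter. Bases further upstream were not searched, so the absence of a full match holds for this window only.
DDIT3 (chr12:57520515-57520764, minus strand): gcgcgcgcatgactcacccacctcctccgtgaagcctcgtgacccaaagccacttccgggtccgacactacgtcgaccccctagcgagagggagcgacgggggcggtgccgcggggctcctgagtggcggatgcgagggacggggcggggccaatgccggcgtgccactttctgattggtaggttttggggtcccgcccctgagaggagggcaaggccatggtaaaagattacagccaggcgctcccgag
CHAC1 (chr15:40953221-40953470, plus strand): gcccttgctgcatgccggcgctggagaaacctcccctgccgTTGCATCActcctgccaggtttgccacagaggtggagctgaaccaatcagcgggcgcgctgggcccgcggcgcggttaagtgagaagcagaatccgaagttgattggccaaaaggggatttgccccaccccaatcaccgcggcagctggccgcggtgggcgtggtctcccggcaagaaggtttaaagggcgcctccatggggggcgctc
ASNS (chr7:97872409-97872658, minus strand): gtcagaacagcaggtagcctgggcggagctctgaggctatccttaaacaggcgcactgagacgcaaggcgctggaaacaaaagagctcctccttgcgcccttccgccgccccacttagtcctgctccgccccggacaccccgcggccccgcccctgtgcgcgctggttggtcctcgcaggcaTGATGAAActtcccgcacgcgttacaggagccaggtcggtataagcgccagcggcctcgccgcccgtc

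CPM here means counts scaled to a common library size. Wildtype libraries held 17322756 to 28988522 counts and knockout libraries 19389644 to 27659835, and the floor of 3 counts stood for 0.109 to 0.161 CPM. DEGS1 was at 95.5 to 123 CPM in wildtype and 6.88 to 10.4 CPM in the knockout. Wildtype library 2 stood apart: the chi-square per degree of freedom between libraries was 31.2 and 48.2 from wildtype 2 to the other wildtype libraries but 19.6 to knockout 2. In the knockout, library 1 was the farthest from the others by this measure (28.7 and 21.8), and libraries 2 and 3 were the closest pair (13.4). Of the blood cell markers, SPI1, MPO and CD3E had no count in any library, and BCR and ABL1, the fusion partners of the parental leukemia, were both expressed. The 13 blood markers summed to 64.6 to 65.4 CPM in wildtype and 68.0 to 77.2 in the knockout, with 1 of 8 tested rising and 3 falling. The 7 epithelial markers summed to 70.4 to 75.4 and 69.7 to 104 CPM, with 2 of 6 falling and KRT19 at 0. The 7 fibroblast markers summed to 8.58 to 13.2 and 10.3 to 13.4 CPM, with 0 of 5 called by edgeR, 1 of them at an unadjusted p under 0.05, and LUM at 0. Their part in the results below was not tested.

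Few of the stress response genes passed the test. Of the 38 tested, 1 rose in the knockout and 0 fell at an edgeR adjusted p under 0.05, or 2.63%, against 4.46% of the 16954 genes tested (1.51% higher and 2.95% lower). The gene that rose was DDIT3. At an unadjusted p under 0.05, 5 members were higher and 2 lower, where 6.69% and 9.81% of all tested genes were, and those besides DDIT3 were SESN2, SHMT2, CTH and SARS, which were higher, and PPP1R15B and EPRS, which were lower. The 3 knockout libraries lay wholly above the wildtype libraries in 4 members (DDIT3, SHMT2, PYCR1 and SARS) and wholly below in 3 (PPP1R15B, ATF5 and EPRS), against 9.24% and 11.6% of all tested genes. The log2 fold change, given throughout as knockout over wildtype with its standard error (SE), was positive in 28 of the 38, with a median of 0.10, while 47.3% of all tested genes were positive with a median of -0.02. In 25 of the 38, or 65.8% (61.3% of all tested genes), it was under 0.25 in size. It was 0.5 to 1 in DDIT3 and over 1 in CHAC1, each 2.63% of members, against 11.3% and 4.54% of all tested genes. The plot of changes by role shows most genes within 0.5 of zero.

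**Figure D1:**
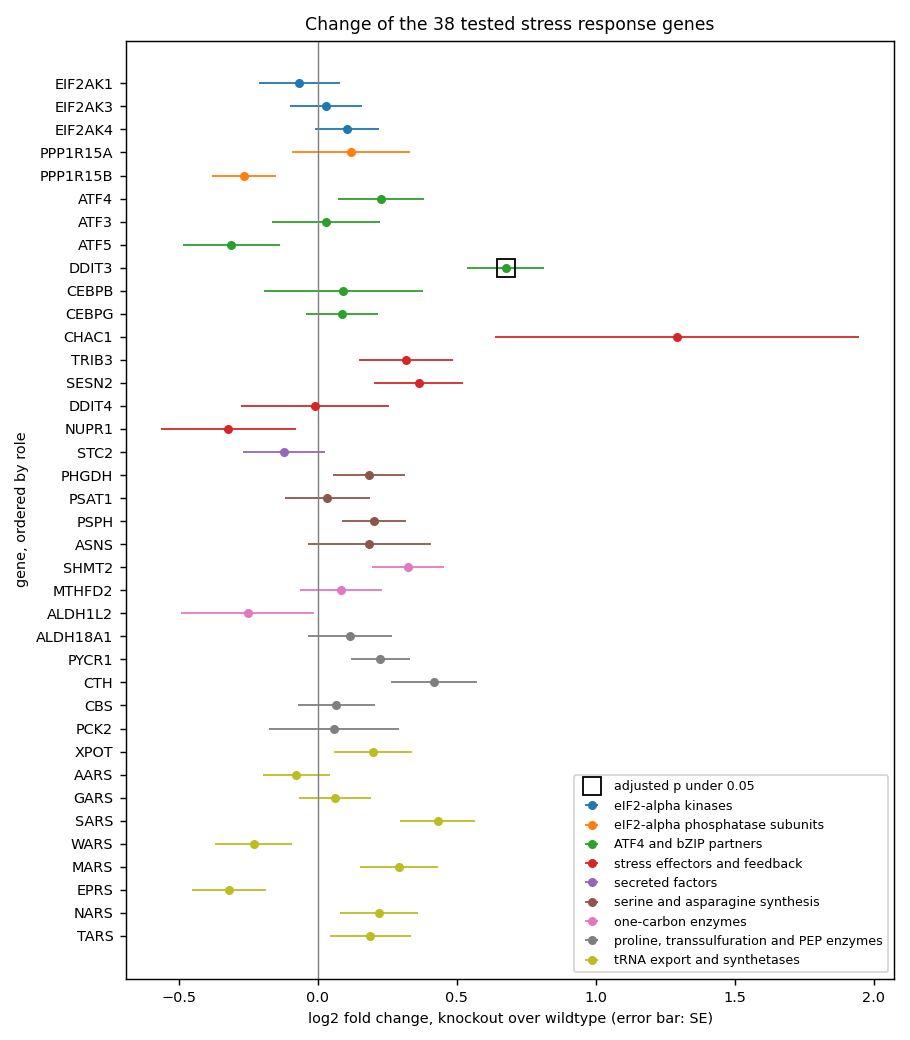
Log2 fold change of knockout over wildtype (x axis) with its standard error as a bar for the 38 tested genes (y axis), coloured by role, from 3 libraries per genotype. DDIT3 at 0.68 is the gene with an adjusted p under 0.05 (square), and CHAC1 at 1.29 has the longest error bar.

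Upstream of ATF4, none of the genes for kinases or phosphatase subunits passed the test. EIF2AK1 encodes HRI, the kinase for heme lack and mitochondrial stress, and was at 147, 198 and 145 CPM in wildtype libraries 1, 2 and 3 and at 139, 170 and 158 CPM in knockout libraries 1, 2 and 3. EIF2AK3 encodes PERK, the kinase of the endoplasmic reticulum, and was at 24.0, 26.8 and 23.7 against 23.5, 29.1 and 23.4 CPM. EIF2AK4 encodes GCN2, the kinase that senses uncharged tRNA, and was at 138, 154 and 131 against 144, 151 and 160 CPM. The groups overlapped in each kinase gene, with log2 fold changes of -0.07 (SE 0.15), 0.03 (SE 0.13) and 0.11 (SE 0.11). Per kilobase of the longest GENCODE transcript, the wildtype level was 36.5 CPM for EIF2AK1, 25.6 for EIF2AK4 and 5.34 for EIF2AK3. PERK thus had the lowest mRNA level of the 3. EIF2AK2, the gene for the further eIF2 kinase PKR, is not a member. It did not pass either (log2 fold change 0.11 with SE 0.12, edgeR adjusted p = 0.688) and was at 19.5 CPM per kilobase in wildtype.

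PPP1R15B, the constitutive subunit that directs a phosphatase to eIF2, was lower in each knockout library, at 181, 191 and 182 CPM in wildtype and 146, 168 and 147 CPM in the knockout. The difference did not pass the test over all genes (log2 fold change -0.27 with SE 0.11, adjusted p = 0.271). Its inducible counterpart PPP1R15A, known as GADD34, was at 8.69, 8.17 and 10.8 against 12.4, 7.30 and 10.4 CPM, and the groups overlapped (log2 fold change 0.12, SE 0.21).

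ATF4 mRNA had the highest level per kilobase of the 40 genes, at 181 CPM per kilobase in wildtype and 212 in the knockout. It was at 370, 404 and 323 CPM in wildtype and 461, 347 and 474 CPM in the knockout, or 0.23 higher on the log2 scale (SE 0.16, adjusted p = 0.513). Knockout libraries 1 and 3 lay above all wildtype libraries, while knockout library 2 lay within them. In bulk RNA, more cells with the transcript and more transcript per cell cannot be told apart, for this and every gene below.

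DDIT3, the gene for the stress factor CHOP, rose in the knockout. It was at 16.6, 18.9 and 14.5 CPM in wildtype and 28.2, 23.9 and 27.8 CPM in the knockout, or 16.6 ± 2.2 against 26.6 ± 2.38 CPM (SD, n = 3 each), 1.60-fold. The groups did not overlap, and knockout library 2 was again the lowest of its genotype. On the log2 scale the rise was 0.68 (SE 0.14, adjusted p = 0.0160). The call was lost when wildtype replicate 1 (edgeR adjusted p = 0.0644), knockout replicate 1 (0.0691) or knockout replicate 3 (0.0949) was left out, with a log2 fold change of 0.58 to 0.85 and an adjusted p of 4.5e-06 to 0.0949 over 18 other settings. The 0.85 and the 4.5e-06 came from the fit without both libraries numbered 2, a setting chosen after the values were seen. In GENCODE release 29 exons of DDIT3 overlap those of MARS on the opposite strand, and the strand setting of the counting is not given in the sources used here. MARS was at 240 ± 21.8 CPM in wildtype and 294 ± 41.6 CPM in the knockout (SD, n = 3 each), far above DDIT3, so some of the DDIT3 counts could be reads from MARS, which was not tested. Exons of MBD6, also on the opposite strand, overlap those of DDIT3 too. MBD6 had a mean of 14.5 CPM in wildtype and 8.81 CPM in the knockout, and its part was not tested either. Exons of 8 members overlapped a protein-coding gene of the opposite strand, namely DDIT3, MARS, ALDH1L2, ATF5, EIF2AK1, MTHFD2, SHMT2 and WARS, and the reads of such pairs cannot be told apart without strand.

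No other bZIP factor passed the test. ATF3, a repressor induced by many stresses, was at 12.8, 12.9 and 11.8 CPM in wildtype and 14.4, 8.91 and 15.02 CPM in the knockout. ATF5, a relative of ATF4 tied to the mitochondrial stress response, was at 12.8, 17.8 and 12.9 against 12.7, 12.5 and 10.02 CPM, with groups that nearly met but did not overlap (log2 fold change -0.31 with SE 0.17, adjusted p = 0.413). CEBPB, a partner of ATF4 and CHOP, was at 4.72, 3.64 and 3.96 against 5.69, 2.64 and 4.85 CPM. CEBPG, the partner of ATF4 on composite sites, was at 111, 131 and 97.5 against 110, 123 and 127 CPM. ATF3 and CEBPB shared a low value in knockout library 2, the lowest of all 6 libraries for both, and CEBPG did not.

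**Figure D2:**
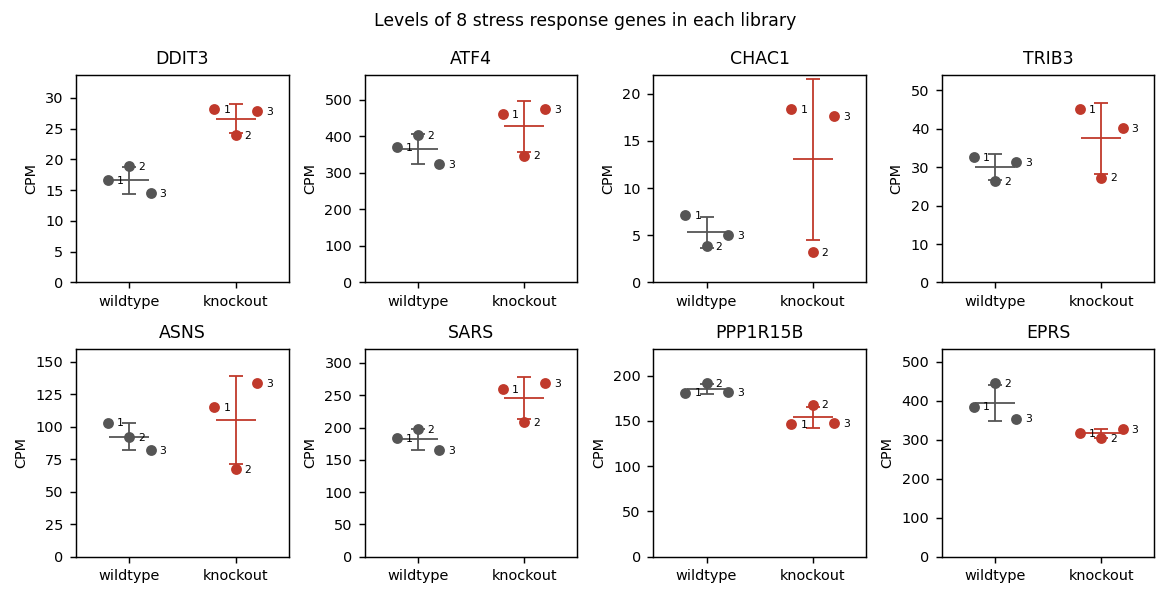
CPM (y axis, from 0) of 8 genes in wildtype and knockout libraries; each point is 1 library with its number, the horizontal line the mean and the bar the SD (n = 3). Knockout library 2 is the lowest knockout library for DDIT3, ATF4, CHAC1, TRIB3, ASNS, SARS and EPRS, and for CHAC1, ASNS and EPRS it is the lowest of all 6.

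Among the effectors downstream of ATF4, CHAC1 had the largest difference and the widest spread. CHAC1, an enzyme that degrades glutathione, was at 7.12, 3.83 and 4.98 CPM in wildtype and 18.4, 3.21 and 17.6 CPM in the knockout. Knockout libraries 1 and 3 were above every wildtype library, and knockout library 2 was below every one of them. The log2 fold change of 1.29 (SE 0.65) did not pass (edgeR adjusted p = 0.405). Without knockout replicate 2 it was 1.76 (edgeR adjusted p = 0.00583), and over the 18 other settings the adjusted p ran from 7.57e-08 to 0.824. The lowest of these came from the fit without both libraries numbered 2, a setting chosen after the values were seen.

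TRIB3, a pseudokinase that restrains ATF4 and CHOP, was also highest in knockout libraries 1 and 3, at 32.6, 26.3 and 31.2 CPM in wildtype and 45.1, 27.3 and 40.1 CPM in the knockout (log2 fold change 0.32 with SE 0.17, adjusted p = 0.388). SESN2, a leucine sensor that holds back mTORC1, was at 18.2, 16.3 and 16.1 against 24.9, 16.8 and 23.4 CPM (log2 fold change 0.36 with SE 0.16, adjusted p = 0.279). In both genes knockout library 2 lay among the wildtype libraries. DDIT4, another inhibitor of mTORC1, was at 14.3, 13.1 and 11.7 against 16.1, 7.11 and 15.8 CPM, with means of 13.0 in both genotypes. NUPR1, a small stress-induced chromatin protein, was at 9.003, 6.31 and 11.5 against 8.26, 5.39 and 7.73 CPM, and library 2 was the lowest of each genotype. Neither DDIT4 nor NUPR1 passed the test.

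The hormones released by stressed cells were low or absent, apart from STC2. STC2, a secreted glycoprotein, was at 65.8, 59.5 and 59.5 CPM in wildtype and 61.5, 43.1 and 65.4 CPM in the knockout (log2 fold change -0.12, SE 0.15). GDF15 had 3 to 8 counts per library in both genotypes, and FGF21 had 1 count in wildtype library 2 and 0 in the other 5 libraries. Both were removed by the filter on low counts, and neither was called in the fit without that filter, where a small difference would not be detectable at this depth.

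The genes of serine and asparagine synthesis all had positive log2 fold changes, none of which passed. PHGDH, the first enzyme of serine synthesis from glycolysis, was at 138, 159 and 130 CPM in wildtype and 173, 143 and 169 CPM in the knockout. PSAT1, the aminotransferase of the next step, was at 190, 214 and 157 against 201, 160 and 214 CPM. PSPH, the phosphatase that completes serine, was at 64.3, 69.1 and 61.0 against 75.9, 65.5 and 82.3 CPM. The log2 fold changes were 0.18 (SE 0.13), 0.03 (SE 0.15) and 0.20 (SE 0.11), and knockout library 2 lay within the wildtype range in all 3. ASNS, asparagine synthetase and a classical ATF4 target, was at 103, 92.0 and 82.1 against 115, 67.3 and 133 CPM (log2 fold change 0.19 with SE 0.22, adjusted p = 0.719). Knockout libraries 1 and 3 were the highest for ASNS and knockout library 2 the lowest, and without knockout replicate 3 its log2 fold change was -0.02.

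Of the mitochondrial one-carbon enzymes, which pass carbon from serine to folate, SHMT2 was higher in each knockout library. SHMT2 was at 182, 186 and 153 CPM in wildtype and 239, 194 and 220 CPM in the knockout (log2 fold change 0.32 with SE 0.13, adjusted p = 0.234). MTHFD2, the next dehydrogenase, was at 348, 406 and 310 against 365, 338 and 425 CPM, with overlapping groups. ALDH1L2, which oxidises formyl-folate, was low at 5.43, 3.38 and 4.66 against 4.10, 3.48 and 3.72 CPM.

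In proline synthesis, PYCR1, the last reductase, was at 89.8, 93.9 and 83.5 CPM in wildtype and 110, 95.9 and 107 CPM in the knockout (log2 fold change 0.23 with SE 0.11, adjusted p = 0.324). The groups did not overlap, with knockout library 2 just above wildtype library 2. ALDH18A1, which opens the pathway from glutamate, was at 172, 226 and 153 against 186, 209 and 201 CPM. CTH, the enzyme that makes cysteine from cystathionine, was at 26.0, 24.4 and 19.1 against 32.6, 25.4 and 35.0 CPM (log2 fold change 0.42 with SE 0.15, adjusted p = 0.189). Its partner CBS, one step earlier, was at 260, 228 and 258 against 296, 219 and 266 CPM, and its counts are uncertain since the table also holds the near-identical copy CBSL. PCK2, the mitochondrial enzyme that makes phosphoenolpyruvate, was at 33.4, 26.1 and 28.98 against 34.0, 19.0 and 39.2 CPM, and library 2 was the lowest of each genotype.

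The tRNA charging genes moved in both directions without passing the test. SARS, seryl-tRNA synthetase, was the member nearest to the threshold, at 184, 197 and 165 CPM in wildtype and 259, 209 and 268 CPM in the knockout (log2 fold change 0.43 with SE 0.14, adjusted p = 0.117). It passed the DESeq2 Wald test (adjusted p = 0.0305), where 2 of 38 members did, DDIT3 and SARS, against 5.89% of genes, and its adjusted p over the 18 other settings ran from 1.14e-05 to 0.45. Those settings include the fit without both libraries numbered 2, chosen after the values were seen. EPRS, the fused synthetase for glutamate and proline, went the other way, at 385, 444 and 355 against 317, 304 and 327 CPM (log2 fold change -0.32 with SE 0.13, adjusted p = 0.244). Neither gene's groups overlapped. MARS was at 261, 241 and 218 against 324, 246 and 310 CPM (log2 fold change 0.29 with SE 0.14, adjusted p = 0.334).

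The remaining genes of tRNA supply differed less. XPOT, which exports tRNA from the nucleus, was at 350, 422 and 324 CPM in wildtype and 394, 425 and 439 CPM in the knockout. NARS was at 310, 391.7 and 297 against 383, 372 and 410 CPM. TARS was at 384, 497 and 366 against 475, 460 and 487 CPM. In these 3 genes wildtype library 2 was well above the other wildtype libraries and within or above the knockout range. GARS was at 269, 295 and 251 against 296, 254 and 299 CPM, a log2 fold change of 0.06 (SE 0.13). AARS was at 218, 216 and 198 against 211, 180 and 209 CPM, and WARS, which interferon also induces, at 146, 166 and 125 against 127, 108 and 137 CPM.

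The median log2 difference, knockout less wildtype, was -0.19 over genes on chromosome 14, -0.16 on chromosome 16 and -0.10 on chromosome 22. PCK2 and WARS lie on chromosome 14 and AARS on the far side of chromosome 16, where the median was -0.30. With the chromosome medians removed WARS moved from -0.23 to -0.04, PCK2 from 0.06 to 0.24 and AARS from -0.08 to 0.08, or to 0.23 with chromosome 16 taken in 2 parts, and none passed. NUPR1, on the near side of chromosome 16, moved from -0.32 to -0.16, or to -0.27 in 2 parts, and ATF4, on chromosome 22, from 0.23 to 0.31, and neither passed. DDIT3, on chromosome 12, stayed at 0.62 (edgeR adjusted p = 0.0267).

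The levels of the 38 genes also differed between libraries of a genotype. The median over the 38 of log2 CPM less the wildtype mean was 0.02, 0.10 and -0.13 in wildtype libraries 1, 2 and 3 and 0.21, -0.08 and 0.25 in knockout libraries 1, 2 and 3. The same median over all tested genes stayed between -0.03 and 0.01 in each library. Knockout libraries 1 and 3 were thus the highest for the members, and knockout library 2 lay below wildtype library 1. Wildtype library 3 was the lowest wildtype library in 28 of 38 members, and in 36.7% of all tested genes.

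**Figure D3:**
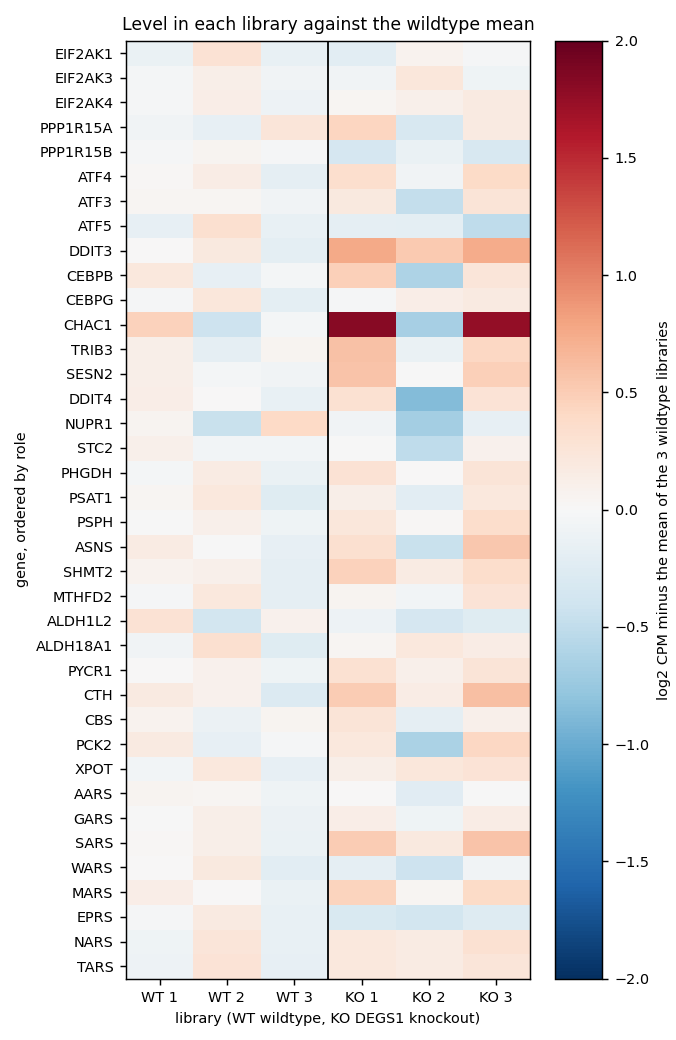
Colour gives log2 CPM less the mean of the 3 wildtype libraries for 38 genes (rows, ordered by role) in 6 libraries (columns, WT wildtype and KO DEGS1 knockout). Knockout libraries 1 and 3 are mostly red, with CHAC1 at 1.82 and 1.76, and knockout library 2 holds most of the blue cells of the knockout, with CHAC1 at -0.66.

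Knockout library 2 was the lowest knockout library in 30 of 38 members, against 39.3% of all tested genes. Set against the mean of knockout libraries 1 and 3, it was lower in 31 of 38 members, with a median of -0.27 on the log2 scale, while 51.0% of all tested genes were lower with a median of -0.01. It was lower by more than 0.5 in 11 members, or 28.9%, against 11.6% of all tested genes. These were CHAC1 (-2.45), DDIT4 (-1.15), CEBPB (-0.97), PCK2 (-0.94), ASNS (-0.88), ATF3 (-0.72), TRIB3 (-0.64), PPP1R15A (-0.63), NUPR1 (-0.56), STC2 (-0.56) and SESN2 (-0.52). All 5 of the downstream effectors were among the 11. The kinase genes, CEBPG, XPOT and TARS differed by at most 0.31 between knockout library 2 and the others, and EIF2AK1 (0.20) and EIF2AK3 (0.31) were higher in it. These comparisons of library 2, and those for wildtype below, were not planned and carry no test.

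Wildtype library 2 did not show the same order. It was the highest wildtype library in 23 of 38 members, against 43.1% of all tested genes. It was lower than the mean of wildtype 1 and 3 in 11 members, or 28.9%, against 51.7% of all tested genes, with a median difference of 0.15 against -0.02. The 11 were ALDH1L2, ASNS, CBS, CEBPB, CHAC1, NUPR1, PCK2, PPP1R15A, SESN2, STC2 and TRIB3. Library 2 was also the lower in the knockout for each of these 11. CHAC1 (-0.63) and NUPR1 (-0.68) had the most negative wildtype values, and ASNS (-0.00) was nearly level.

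**Figure D4:**
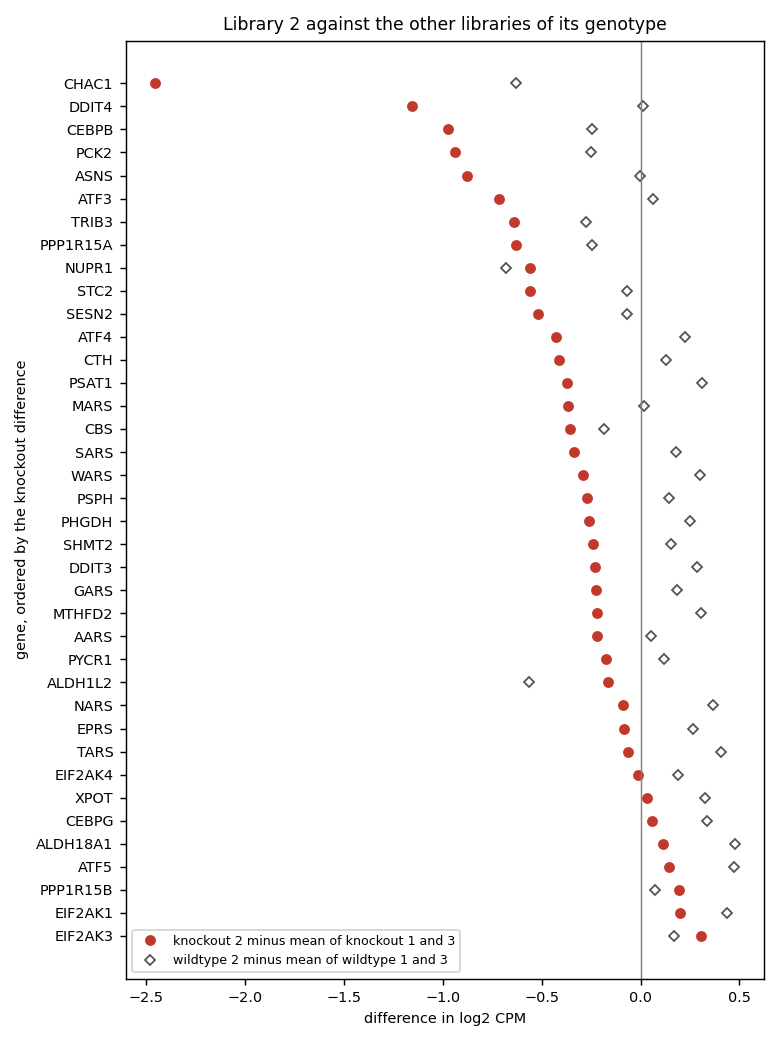
Difference in log2 CPM (x axis) between library 2 and the mean of libraries 1 and 3 of the same genotype for 38 genes (y axis); filled circles are knockout and open diamonds wildtype. In the knockout 31 of 38 genes lie below 0, down to -2.45 for CHAC1, and in the wildtype 11 of 38.

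How many members passed the test depended on these libraries, while the median log2 fold change over the members stayed positive in the reported fit and all 18 other settings (0.05 to 0.26). The 0.26 came from the fit without both libraries numbered 2, chosen after the values were seen. In 15 of 38 members knockout libraries 1 and 3 were above all wildtype libraries and knockout library 2 was not, against 6.45% of all tested genes, and in 1, EIF2AK3, the reverse held, against 6.14%. The 15 were ATF4, ATF3, CEBPB, CHAC1, TRIB3, SESN2, DDIT4, PHGDH, PSPH, ASNS, CTH, CBS, PCK2, GARS and MARS. This way of counting was chosen after the values were seen and carries no test. Without knockout replicate 2, 29 of 38 log2 fold changes were positive with a median of 0.23, and CHAC1 and DDIT3 passed, 5.26% of the members against 3.61% of genes.

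Without wildtype replicate 2, 7 members rose, namely DDIT3, SARS, NARS, TARS, XPOT, SHMT2 and ALDH18A1, or 18.4% against 22.1% of all genes tested in that fit. With both libraries numbered 2 left out, a setting chosen after the values were seen that leaves 2 libraries per genotype, 19 members rose and 1 fell, against 16% of genes higher and 16.3% lower (32.2% in all). Those that rose were ATF4, DDIT3, CHAC1, TRIB3, SESN2, PHGDH, PSAT1, PSPH, ASNS, SHMT2, MTHFD2, ALDH18A1, PYCR1, CTH, XPOT, SARS, MARS, NARS and TARS, and PPP1R15B fell. In that fit ATF4 had a log2 fold change of 0.44 (edgeR adjusted p = 0.00106, the lowest of 0.00106 to 0.897 over the 18 other settings), ASNS 0.42 (0.0166) and CHAC1 1.56 (7.57e-08). Per the labels' descriptions, libraries with the same replicate number also share a further number across genotypes, whose meaning is not given there. The 3 libraries of each genotype remain the basis of the counts above.

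The other genes of the pathway gave few calls. Of 22 genes for eIF2, the exchange factor eIF2B and the upstream sensors 0 passed edgeR's test and 4 had an unadjusted p under 0.05, with DNAJC3, an inhibitor of eIF2 kinases, nearest (log2 fold change -0.44 with SE 0.12, adjusted p = 0.0739). Of 11 amino acid transporters 1 fell, SLC7A1, the carrier of arginine and lysine, from 164, 117 and 159 CPM to 90.1, 86.6 and 81.6 CPM (log2 fold change -0.77 with SE 0.14, adjusted p = 0.00718). DNAJC3 and SLC7A1 both lie on chromosome 13, where the median was -0.34, and SLC7A1 lost its call with chromosome medians removed (-0.43, edgeR adjusted p = 0.173) and without knockout replicate 3 (0.0637). SLC7A11, the cystine carrier that ATF4 induces, was at 160, 133 and 139 against 238, 171 and 245 CPM, just short of the threshold (log2 fold change 0.60 with SE 0.15, adjusted p = 0.0506), and is named here after its values were seen. At an unadjusted p under 0.05 it was the 1 transporter that was higher, and 3 were lower, SLC7A1, SLC7A5 (-0.32, SE 0.14) and SLC43A1 (-0.37, SE 0.16). SLC7A5, a carrier of large neutral amino acids, had groups that did not overlap, at 164, 134 and 155 against 133, 98.6 and 133 CPM. SLC7A5 lies on chromosome 16, where the median was -0.16, and the part of that shift was not tested. In SLC7A11, SLC7A5 and SLC43A1 alike, library 2 was the lowest knockout library.

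Of 28 other ATF4 targets 1 rose, VLDLR, a lipoprotein receptor, from 44.2, 36.0 and 37.6 to 56.6, 57.0 and 49.8 CPM (log2 fold change 0.47 with SE 0.12, adjusted p = 0.0402). Knockout library 2 was not low for VLDLR, and the call was lost without wildtype replicate 3 or any 1 of the knockout libraries (adjusted p 0.0845 to 0.14). At an unadjusted p under 0.05, 5 of the 28 were higher and 3 lower, where 6.69% and 9.81% of all tested genes were. The higher were VLDLR, SQSTM1, EIF4EBP1, TNFRSF10B and CARS, and the lower GPT2, MAP1LC3B and SLFN5. Apart from VLDLR, they are named after their values were seen. GPT2 (-0.29) and MAP1LC3B (-0.38) lie on chromosome 16, where the median was -0.16, and the part of that shift was not tested. The log2 fold change was positive in 21 of the 28, with a median of 0.21, against 47.3% and -0.02 over all tested genes. Lists of 15 non-member genes of cytosolic tRNA charging and 17 mitochondrial tRNA synthetases shared CARS, IARS, LARS, YARS and NARS2 with the other ATF4 targets. In either list 0 genes passed edgeR's test. At an unadjusted p under 0.05 there was 1 gene in either list, CARS (log2 fold change 0.31, SE 0.14) and CARS2 (-0.32, SE 0.10). CARS2 lies on chromosome 13, where the median was -0.34, and the part of that shift was not tested. Of 21 paralogs of the members 1 rose, SESN3, a sestrin related to SESN2, from 57.1, 80.5 and 57.3 to 97.3, 135 and 114 CPM (log2 fold change 0.83 with SE 0.16, adjusted p = 0.0115). Here knockout library 2 was the highest, the opposite of SESN2, and the call was lost without it (adjusted p = 0.0657) or without knockout replicate 3 (0.0526). Of 21 genes of the IRE1 and ATF6 arms of the unfolded protein response 0 passed edgeR's test and 0 had an unadjusted p under 0.05, with MANF nearest (log2 fold change 0.28 with SE 0.15, adjusted p = 0.391).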

How the data were processed

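The authors deposited raw read counts for each gene symbol, as whole numbers, with 1 column per library. Per the labels' protocols, libraries were made from 1 ug of RNA with a stranded kit for total RNA and read as single reads of 75 nt. Per the submitters' processing notes, bcl2fastq 2.20 and hg19 were used, while aligner, counter, annotation and strand setting are not given there or in the labels. Genes were fitted with edgeR 4.0.16 in R 4.3.3 on all 6 libraries (trimmed mean of M values scaling, edgeR's expression filter by genotype, robust quasi-likelihood F test on genotype, Benjamini-Hochberg adjustment over 16954 genes, threshold 0.05). SE was obtained by dividing the size of the log2 fold change by the root of F, and per-library log2 CPM used a prior count of 2. Counting floors cover counting error only. Every pair of libraries differed by more than sampling noise (chi-square per degree of freedom 11.7 to 48.2). Chromosomes came from RefSeq, or GENCODE 29 where RefSeq placed no symbol alone. Transcript length and GC content came from GENCODE 29, for 94.1% of tested genes. Alternatives used DESeq2 1.42.0 and limma 3.58.1. The fit was tested on simulated data. All 40 members are named, with DEGS1 and, in each further list, the called genes (at most 4) or else the gene with the smallest p. The members, lists and tests were chosen with earlier results of these data known.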

Additional observations from a re-analysis of the deposited data

How the results depend on the processing

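Over the 18 other settings DDIT3 was called in 15, and DEGS1 in all 18, from -3.72 to -3.32. The 18 include the fit without both libraries numbered 2, chosen after the values were seen. The members called higher (1 in the reported fit) were 2 with the DESeq2 Wald test, 19 without both libraries numbered 2 and 0 to 7 with single libraries left out; those called lower (0) were 1 with library size only, EPRS (edgeR adjusted p = 0.0414), and 1 without both libraries numbered 2. Over all genes, 256 were higher and 500 lower. The higher genes were 385 with the DESeq2 Wald test, 441 with the length and GC trend removed, 2726 without both libraries numbered 2 and 113 to 1835 with single libraries left out. The lower genes were 2771 without both libraries numbered 2 and 267 to 1990 with single libraries left out. Fewer libraries enter the last settings. The 1835 higher and 1990 lower genes were those without wildtype replicate 2. Leaving out any other single library gave fewer genes in both directions than the reported fit. The causes were not tested. The replicate number as a block gave 390 genes higher and 692 lower and the same count of members, 1, DDIT3 at 0.68 (edgeR adjusted p = 0.0150). Deviations from the group means of libraries with the same number correlated across genes at 0.26, 0.41 and -0.23 for numbers 1, 2 and 3. With 3 libraries per genotype these deviations depend on each other, so the values do not settle whether the numbers pair the libraries. GDF15 and FGF21 are limited by depth.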
